A study of Mus musculus with 8 samples.

Results

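The mitochondrial ribosomal protein genes are the nuclear genes for the protein part of the ribosome inside mitochondria. They were taken as every row of both tables whose gene symbol is Mrpl or Mrps followed by a number and at most 1 letter. This gave 78 genes of the 52139 listed in both tables, 49 named for the large subunit (Mrpl) and 29 named for the small subunit (Mrps). All 78 were at 1 TPM or more in each of the 8 libraries, so no member was lost to the filter on low values, and 75 were at 5 TPM or more in all 8. TPM is a relative abundance, the reads of a gene divided by its length and scaled to the library.

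RNA was sequenced from C2C12, an immortalised mouse myoblast line, labelled wild type in all 4 groups. One table holds 1 library after treatment with a concentrate of ginseng berries (GBC) and 1 after the solvent DMSO alone. The other holds 3 libraries of cells given ginsenoside Re, a saponin of ginseng, and 3 of cells given DMSO. The study asked how the concentrate and Re change gene expression, and the labels used here give neither dose nor time, and do not say whether the libraries of a group came from separate cultures. The p-values below therefore measure the spread between these libraries, which may be technical.

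The mitochondrial ribosome makes the few proteins encoded by mitochondrial DNA, which are core subunits of the respiratory chain and of ATP synthase. Its 2 rRNAs are transcribed in the mitochondrion, while all of its proteins are encoded in the nucleus, made in the cytosol and imported. The small subunit binds and decodes the mRNA, and the large subunit joins the amino acids and is anchored to the inner membrane. Many members have a bacterial homologue, and others are found only in mitochondrial ribosomes. In muscle cells, which rely on oxidative phosphorylation, nuclear factors such as NRF1, the ETS family factor GABP (also called NRF2) and YY1 are known to bind promoters of genes for mitochondrial proteins.

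Promoter sequence was examined because shared letters around the start are a property that the choice of members by name did not use. RefSeq windows from 250 bases before to 50 bases after the start (300 bases, build GRCm38.p6, another build than the GRCm39 of the submitters' processing notes) were matched by symbol for 69 of the 78 members, in 75 windows. Mrpl4, Mrpl13, Mrpl15, Mrpl19, Mrpl38, Mrpl54, Mrps28, Mrps34 and Mrps35 were not matched. Some RefSeq starts lay far from the gene's start in the GENCODE M21 annotation. The distance was 17016 bases for Mrpl33, 7979 for Mrps24, 3185 for Mrpl35 and 2496 for Mrpl36. Of 8 motifs searched on both strands, 3 are those of the factors above, namely NRF1 as GCATGCGC, ETS as CCGGAAG and YY1 as AAGATGGCG. The stretches below lie just upstream of the start of 5 members described later, in lower case with matches to these letters, on either strand, in capitals, and are written 5′ to 3′ on the gene's own strand. Mrpl22, Mrpl43 and Mrps18a are shown as members with some of the smallest p for Re. Mrpl50 and Mrps27 are shown as members that share a short upstream stretch with a gene on the other strand. Of the other members ranked so within their subunit, Mrpl40 and Mrps25 had none of these 3 motifs in their windows. Mrps21 had the ETS letters in its window, and Mrpl19 and Mrps34 were not matched.
Mrpl22, chr11:58171511-58171660, plus strand: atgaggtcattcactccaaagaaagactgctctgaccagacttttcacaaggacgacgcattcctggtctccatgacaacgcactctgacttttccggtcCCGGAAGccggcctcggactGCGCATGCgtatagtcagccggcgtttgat
Mrpl43, chr19:45006443-45006557, minus strand: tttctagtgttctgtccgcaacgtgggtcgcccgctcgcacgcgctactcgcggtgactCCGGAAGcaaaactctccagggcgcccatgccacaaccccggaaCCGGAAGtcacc
Mrps18a, chr17:46110836-46110985, plus strand: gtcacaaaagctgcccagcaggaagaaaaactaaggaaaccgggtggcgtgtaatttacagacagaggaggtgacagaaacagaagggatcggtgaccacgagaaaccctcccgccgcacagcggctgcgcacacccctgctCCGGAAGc
Mrpl50, chr4:49521094-49521175, minus strand: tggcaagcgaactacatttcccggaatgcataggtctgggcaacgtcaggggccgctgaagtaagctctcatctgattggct
Mrps27, chr13:99344706-99344785, plus strand: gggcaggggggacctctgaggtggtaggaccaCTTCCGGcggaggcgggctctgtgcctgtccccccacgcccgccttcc

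The stretch of Mrpl22 held 1 ETS and 1 NRF1 match and that of Mrpl43 held 2 ETS matches. The stretches of Mrps18a and Mrps27 held 1 ETS match each, and that of Mrpl50 held none of the 3 motifs. Over the 75 member windows, 34.7% (26) held the ETS letters, against 18.6% of the 11463 windows of genes at a mean of 1 TPM or more and 8.86% of all 32851 windows. The NRF1 letters stood in 10.7% (8) of member windows, against 5.48% and 2.71%. Of these, 7 were among the 48 large subunit windows (14.6%) and 1 among the 27 small subunit windows (3.70%). The YY1 letters also stood in 10.7% (8), against 3.22% and 1.40%, with 8.33% of large and 14.8% of small subunit windows, and the ETS letters in 31.2% and 40.7%. The YY1 match began 11 to 36 bases after the start in Mrps18a, Mrps27, Mrpl35, Mrpl37, Mrpl42 and Mrps24. It began before the start in Mrpl36 and Mrps11, at -31 and -108. Some ETS matches also began after the start, as in Mrps21 at 18 bases, and most began before it. SP letters (GGGCGG) were in 52% of member windows, beside 64.0% of windows of expressed genes, with 43.8% of large and 66.7% of small subunit windows. TATAAA was in 6.67% of member windows, against 7.05% and 13.6%. CCAAT was in 40% against 38.7% and 37.4%, CACGTG (the E-box) in 9.33% against 10.1% and 7.15%, and the CREB letters TGACGTCA in 2.67% against 3.17% and 1.79%. The ETS letters of Mrpl48 stood only in a window whose start lay 25171 bases from its GENCODE start. A match is a run of letters and was not tested as a binding site.

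**Figure D1:**
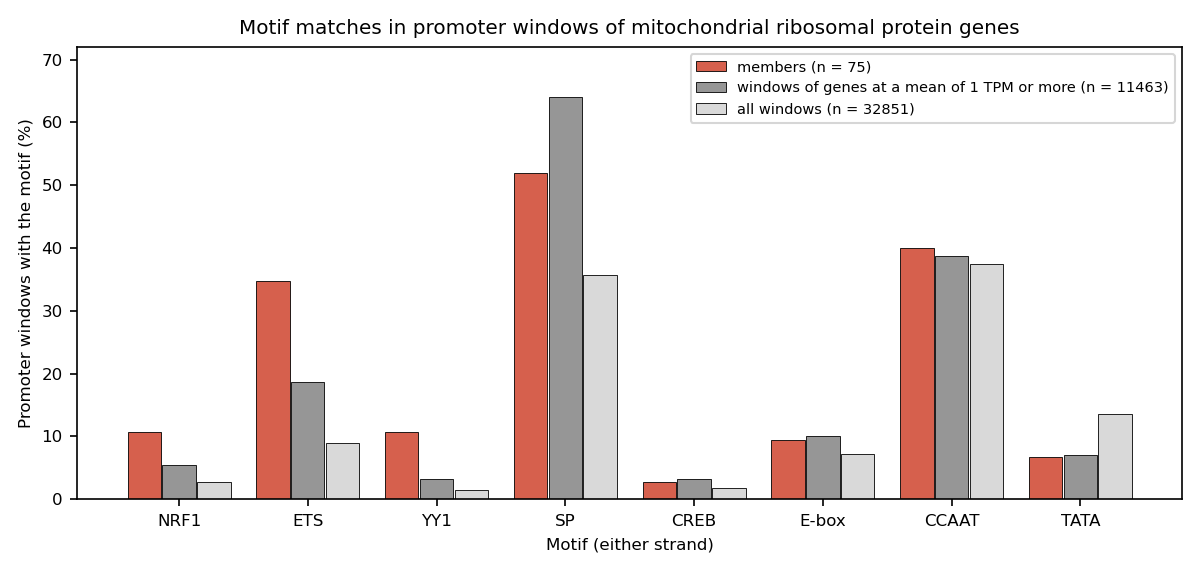
Bars show the percentage of promoter windows of 300 bases that hold each motif on either strand, for the 75 windows of members (red), the windows of genes at a mean of 1 TPM or more in the Re table (grey) and all windows (light grey). The member bar is the tallest for ETS at 34.7%, for NRF1 at 10.7% and for YY1 at 10.7%, and lies below the grey bar for SP at 52%.

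Members were often close to another gene's start. A protein-coding gene on the other strand began within 500 bases upstream of 17 members (21.8%), against 1139 of 10880 protein-coding genes tested (10.5%), by the GENCODE M21 annotation. Pairs whose annotated starts overlap were not counted. Mrpl46 and Mrps11, which share an upstream stretch of 29 bases on opposite strands in the RefSeq windows, were not among the 17. Mrps12 lay 172 bases from Sars2, the mitochondrial seryl-tRNA synthetase, and Mrps27 lay 81 bases from Ptcd2, a mitochondrial RNA-processing protein. Mrpl50 lay 83 bases from Zfp189, and Mrpl49 lay 59 bases from Fau, which encodes a cytosolic ribosomal protein. The partners did not always share a direction with the member. On the log2(TPM + 1) scale, Mrpl40 was higher by 0.28 and its partner Hira, a histone chaperone, lower by 0.31 in Re, and neither passed the test described below.

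The libraries were not alike in what their listed genes add up to, and this touches every value below. Listed TPM summed to between 642180 and 743269 in the 6 libraries of the Re table, with the second DMSO library the lowest, and to 403442 (DMSO) and 479938 (GBC) in the pair. Of 10 myoblast markers, 8 were at 1 TPM or more in each of the 6 libraries of the Re table, where they summed to 277.67 to 309.17 TPM. In the pair 3 of 10 were, summing to 16.57 and 21.33 TPM, and Myod1, Myf5, Myog, Pax7 and Cdh15 were at 0 in both libraries. The data of the pair thus go against the myoblast label on its defining markers, so its libraries are named below by their labels only. Of 8 fibroblast or mesenchymal markers, 5 were at 1 TPM or more in each library of the Re table (summed 239.41 to 309.61 TPM) and 6 in each library of the pair (172.64 TPM without and 332.3 TPM with GBC). The part of cell makeup in the results was not tested, and in bulk RNA fewer cells of a type and less RNA per cell cannot be told apart.

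Both subunits were expressed at similar levels. In the DMSO libraries of the Re table the median over members of the mean TPM was 39.2 for the large and 39.2 for the small subunit. Members summed to 3810, 3254 and 3579 TPM in the DMSO libraries and to 3884, 3916 and 3934 TPM in the Re libraries, which is 0.507% to 0.554% of the listed TPM. The proteins stand in equal numbers in the finished ribosome, with the exception of the stalk protein bL12m, but their transcripts did not. The highest member exceeded the lowest 15.9-fold in the large and 9.77-fold in the small subunit, while 35 of 49 and 24 of 29 lay within 2-fold of their subunit's median.

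Among large subunit genes Mrpl52 (mL52, found only in mitochondrial ribosomes) was highest in the Re table, at 170, 114 and 129 TPM in DMSO and 134, 145 and 134 TPM in Re. Mrpl20 (bL20m, a protein with a bacterial homologue that binds rRNA) stood at 132, 106 and 129 TPM in DMSO and at 132, 112 and 119 TPM in Re. Mrpl42 (mL42) stood at 120, 107 and 104 TPM in DMSO and at 111, 141 and 129 TPM in Re. These 3 overlapped between groups and, within DMSO, did not differ from one another beyond their spread. The lowest were Mrpl1 (uL1m, the protein of the L1 stalk by which spent tRNA leaves) at 8.68 ± 1.98 TPM, Mrpl48 (mL48) at 8.74 ± 0.845 TPM and Mrpl47 (uL29m, beside the exit of the peptide tunnel) at 12.6 ± 1.85 TPM (DMSO, SD, n = 3).

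In the small subunit Mrps21 (bS21m) led, at 110, 107 and 113 TPM in DMSO and 125, 133 and 135 TPM in Re. Its lowest DMSO value was above the highest DMSO value of each of the next genes, Mrps18b (mS40) at 71.6, 68.5 and 79.2 TPM and Mrps6 (bS6m) at 81.5, 59.6 and 63.8 TPM, which overlapped each other. The lowest were Mrps30 at 11.3 ± 1.02 TPM, Mrps27 (mS27) at 16.4 ± 1.34 TPM and Mrps31 (mS31) at 16.4 ± 0.811 TPM (DMSO, SD, n = 3). Mrps30, as mL65, and Mrps18a, as mL66, sit in the large subunit despite their names. Mrps36 is no part of the ribosome but a subunit of the oxoglutarate dehydrogenase complex of the citric acid cycle. It stood at 39.4, 20.6 and 34.9 TPM in DMSO and at 33.8, 39.5 and 35.2 TPM in Re, with the second DMSO library apart from the other five, and without that library its Re difference turned from 0.24 to -0.04 on the log2(TPM + 1) scale.

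**Figure D2:**
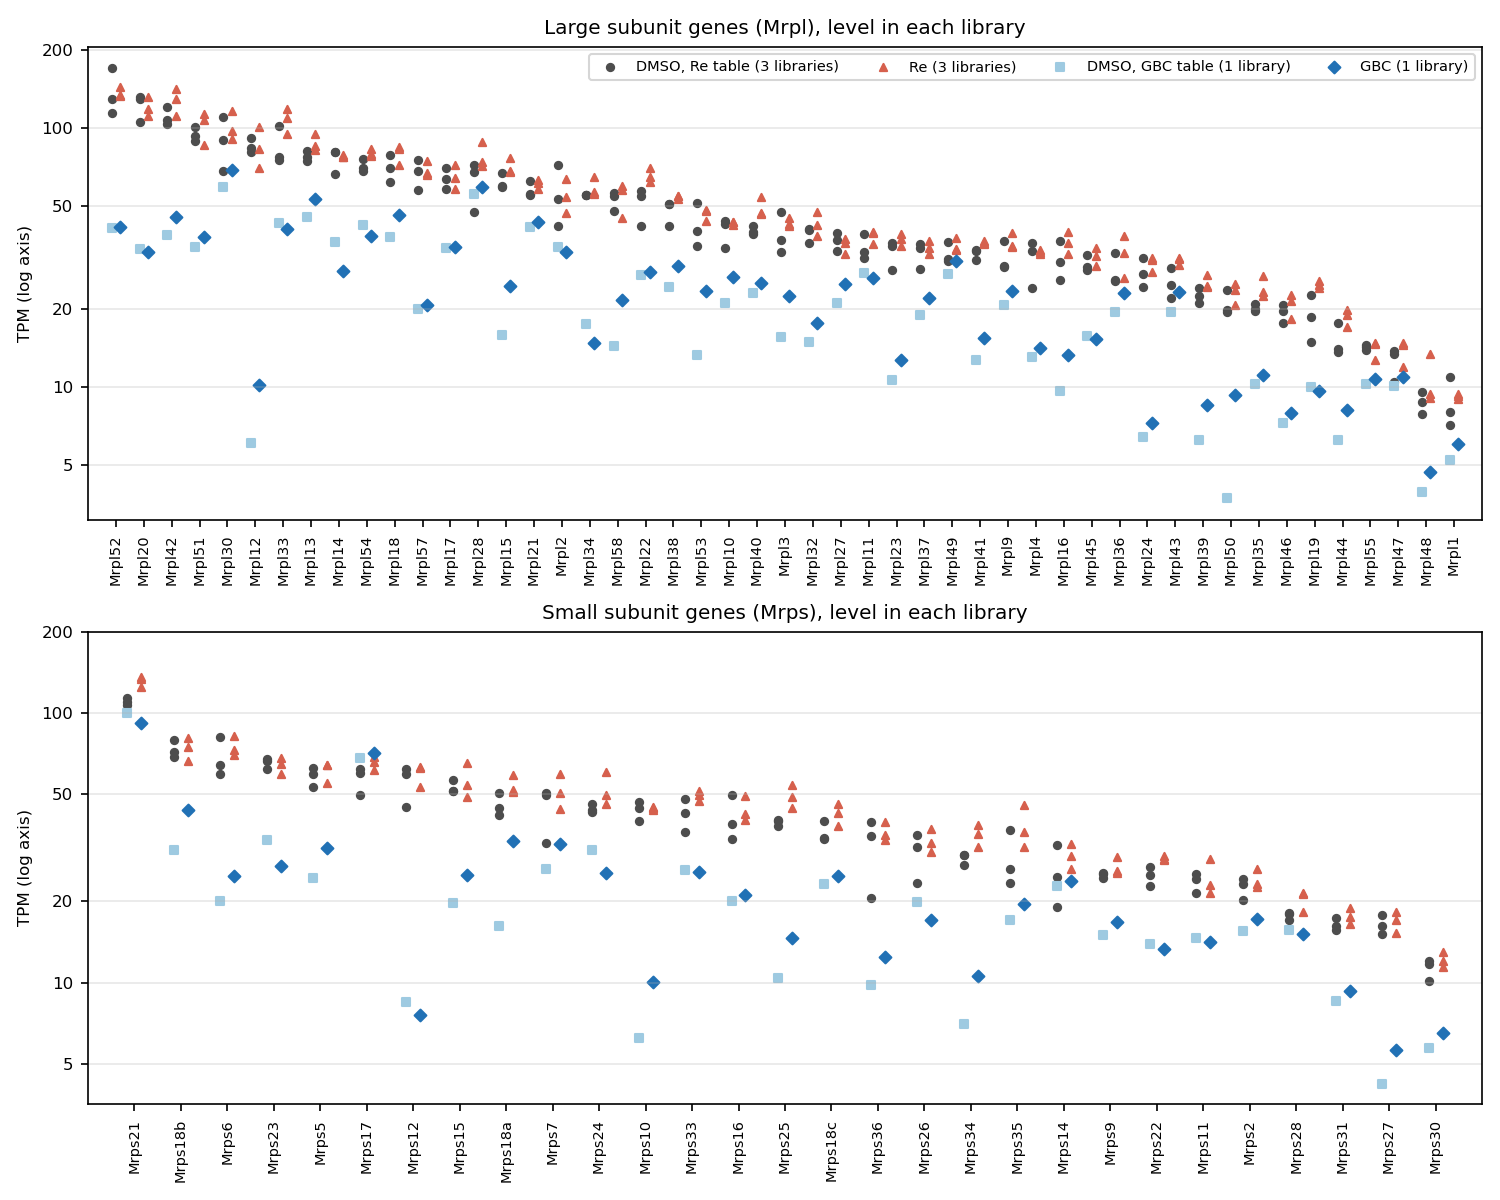
Points show the TPM (log axis) of each member in each library, with large subunit genes above and small subunit genes below, ordered by the DMSO mean of the Re table. Grey circles and red triangles (Re table) mix for most genes, and 75 of 78 light blue squares (DMSO of the pair) lie below all 3 grey circles. The median over all genes was lower in that library too.

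The order of members was partly kept between the tables, which were normalised separately. The DMSO levels of the 78 members correlated across genes with Spearman's rho of 0.747 and Pearson's r of 0.743 on the log2 scale; the genes share the libraries and are not independent replicates. Of the 78, 75 were lower in the DMSO library of the pair than in every DMSO library of the Re table. The median over members was lower by 0.90 on the log2(TPM + 1) scale, against 1.16 for all genes. The lower level was thus not particular to the members, and the same count over all genes was not made. Mrpl12, the stalk protein bL12m that recruits translation factors and is also reported to bind the mitochondrial RNA polymerase, had the widest gap, at 6.08 TPM in the pair's DMSO library against 81.2, 84.0 and 91.9 TPM. Mrps10 (uS10m) stood at 6.22 against 44.3, 39.6 and 46.7 TPM, and Mrps12 (uS12m, in the decoding centre) at 8.46 against 44.9, 62.2 and 59.4 TPM. At the other end Mrps17 (uS17m) was at 67.97 TPM in the pair's DMSO library, above its 62.1, 59.9 and 49.5 TPM. Mrps14 (uS14m), at 22.8 against 32.5, 24.6 and 19.1 TPM, and Mrpl28 (bL28m), at 55.8 against 71.9, 47.5 and 67.5 TPM, lay within the range of the other table. In the pair the highest large subunit genes were Mrpl30, Mrpl28 and Mrpl13, and the highest small subunit genes Mrps21, Mrps17 and Mrps18b. The lowest there were Mrpl48, Mrpl1 and Mrpl50 and, in the small subunit, Mrps27, Mrps30 and Mrps12.

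With Re, no mitochondrial ribosomal protein gene passed the test. By limma on log2(TPM + 1), over the 11967 genes whose mean reached 1 TPM, 0 of 78 members and 0 of all genes (0%) had an adjusted p under 0.05, and the smallest adjusted p was 0.687. Before adjustment 10 members had p under 0.05 by limma, all of them higher in Re, 7 of the large and 3 of the small subunit, against 676 of all genes higher at that level (5.65%). Without the first DMSO library 23 members were under that p, as were 1657 of all genes against 745 with all 6 libraries. Without the third DMSO library 3 members and 534 genes were, and without the second Re library 4 and 424. The difference was above 0 for 45 of 49 large and 28 of 29 small subunit genes, while 9278 of the 11967 genes tested (77.5%) were also higher. The median difference was 0.14 for the large and 0.16 for the small subunit, against 0.11 for all genes. For this table, the median-of-ratios scaling, which brings the median of all genes to -0.00, left 45 of 78 members higher, with medians of 0.03 and 0.05.

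The spread between DMSO libraries was wider than the difference between groups for most members. The largest gap between 2 DMSO libraries exceeded the difference between groups for 64 of 78 members. That gap is a range over 3 libraries, while the difference is between group means, so the measures are not of the same kind. The same count over all genes was not made, so the 64 is not read as particular to the members. The second DMSO library, with the lowest listed sum, was the lowest of all 6 for 44 of 78 members, as it was for 51.0% of all genes. Large subunit medians were 41.8, 35.9 and 39.9 TPM in DMSO and 43.4, 42.7 and 42.5 TPM in Re, and small subunit medians 39.6, 34.2 and 38.7 TPM in DMSO and 44.4, 43.6 and 40.1 TPM in Re. Both sets of 3 medians were separate as deposited. Without the second DMSO library the median differences were 0.09 (large) and 0.09 (small), and 57 of 78 members were higher. Without the first they were 0.19 and 0.25. The 95% confidence interval of a member's difference reached a median of 0.26 to either side, against 0.31 for all genes, which limits the size of change that 3 libraries a group can show.

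**Figure D3:**
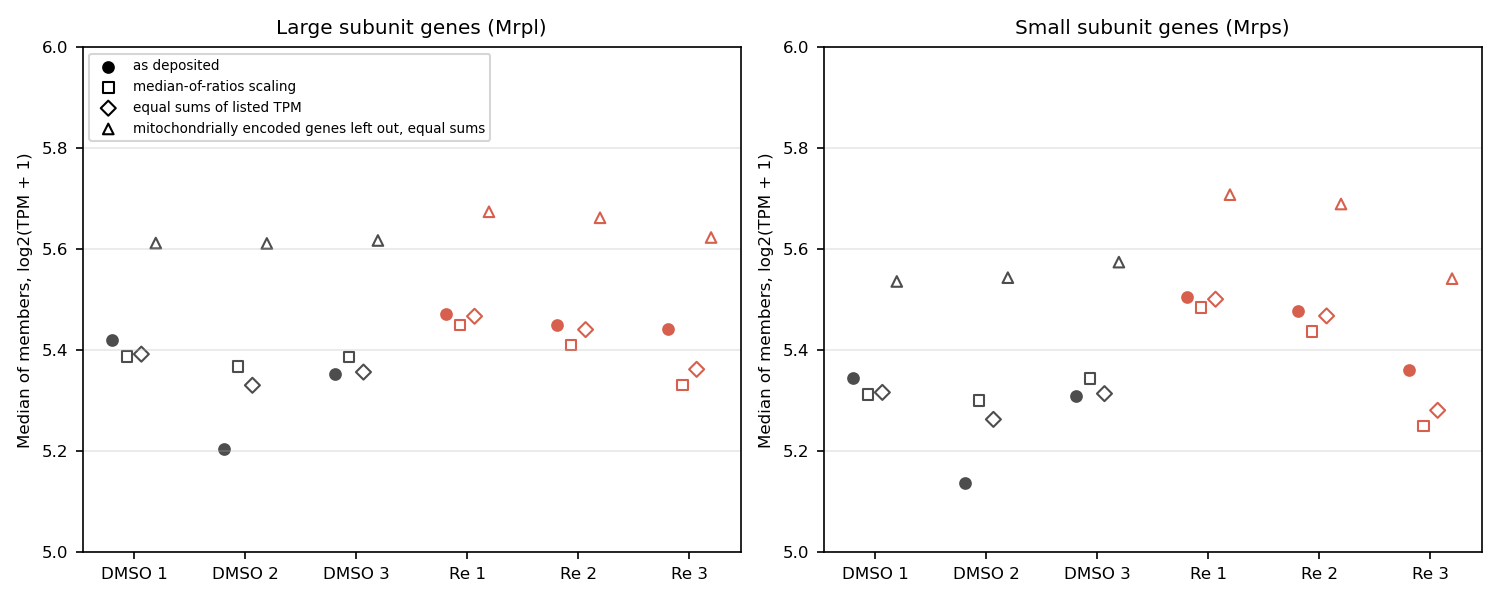
Points show the median over members of log2(TPM + 1) in each library of the Re table (DMSO grey, Re red), for the large and the small subunit, as deposited (filled) and under 3 scalings (open symbols). As deposited all Re points lie above all DMSO points, and under median-of-ratios scaling the third Re library lies below all 3 DMSO libraries in both panels.

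Of the large subunit genes with the smallest p, Mrpl40 (mL40) stood at 41.8, 39.0 and 39.9 TPM in DMSO and at 54.01, 46.6 and 46.9 TPM in Re, so the groups did not overlap. Its difference was 0.28 ± 0.09 (SE; 95% interval 0.07 to 0.50; limma adjusted p = 0.687). Mrpl19 (bL19m, at the interface of the subunits) stood at 22.7, 14.98 and 18.6 TPM in DMSO and at 24.1, 24.9 and 25.7 TPM in Re, a difference of 0.41 ± 0.15 (SE; adjusted p = 0.687). Its Re libraries were closer together than its DMSO libraries, and without the second DMSO library its difference was 0.26. Mrpl22 (uL22m, which lines the peptide tunnel and whose promoter held the NRF1 and ETS letters) stood at 57.3, 41.8 and 54.8 TPM in DMSO and at 64.9, 61.7 and 70.3 TPM in Re. Its difference was 0.36 ± 0.13 (SE; adjusted p = 0.687), and 0.22 without the second DMSO library. Mrpl43 (mL43, with 2 ETS matches) stood at 28.8, 22.2 and 24.8 TPM in DMSO and at 31.6, 31.3 and 29.7 TPM in Re, a difference of 0.29 ± 0.11 (SE; adjusted p = 0.687). In all 4 genes each Re library was above each DMSO library.

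In the small subunit Mrps25 (mS25) had the smallest p of all members. It stood at 37.9, 39.7 and 40.0 TPM in DMSO and at 44.4, 48.9 and 53.96 TPM in Re, a difference of 0.31 ± 0.10 (SE; 95% interval 0.09 to 0.54; limma adjusted p = 0.687). Mrps21, the most abundant small subunit gene, differed by 0.25 ± 0.08 (SE; adjusted p = 0.687), with the values given above. Mrps34 (mS34, needed for a stable small subunit) stood at 29.7, 27.3 and 29.6 TPM in DMSO and at 31.7, 35.6 and 38.4 TPM in Re, a difference of 0.28 ± 0.10 (SE; adjusted p = 0.687). Mrps18a (mL66) stood at 50.6, 41.9 and 44.3 TPM in DMSO and at 50.8, 51.6 and 58.6 TPM in Re. Its groups were separated by less than 1 TPM at the nearest pair of libraries, and its difference was 0.23 ± 0.11 (SE; adjusted p = 0.687).

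In 19 members each Re value exceeded each DMSO value, 12 of them large and 7 small subunit genes, against 1639 of all genes (13.7%), and no member was separated the other way, against 152 of all genes (1.27%). After median-of-ratios scaling 6 members were separated upward, against 627 of all genes (5.24%), namely Mrps21, Mrpl19, Mrpl22, Mrps34, Mrps18a and Mrps22. Mrpl27 alone was then separated downward, against 593 of all genes (4.96%). Mrpl27 (bL27m, near the peptidyl transferase centre) stood at 39.3, 33.7 and 37.0 TPM in DMSO and at 32.8, 36.0 and 37.2 TPM in Re, which overlap as deposited (difference -0.05, limma adjusted p = 0.854). The other members that were lower as deposited were Mrpl12, Mrpl20, Mrpl55 and Mrps23, with differences of -0.03, -0.01, -0.02 and -0.03. Mrpl12 was spread more widely in Re (70.0, 82.8 and 101.22 TPM) than in DMSO. Mrpl58 (mL62, also ICT1, a peptidyl-tRNA hydrolase that rescues stalled ribosomes) stood at 56.2, 48.0 and 54.9 TPM in DMSO and at 45.1, 59.9 and 57.7 TPM in Re, a difference of 0.02 with the groups overlapping.

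**Figure D4:**
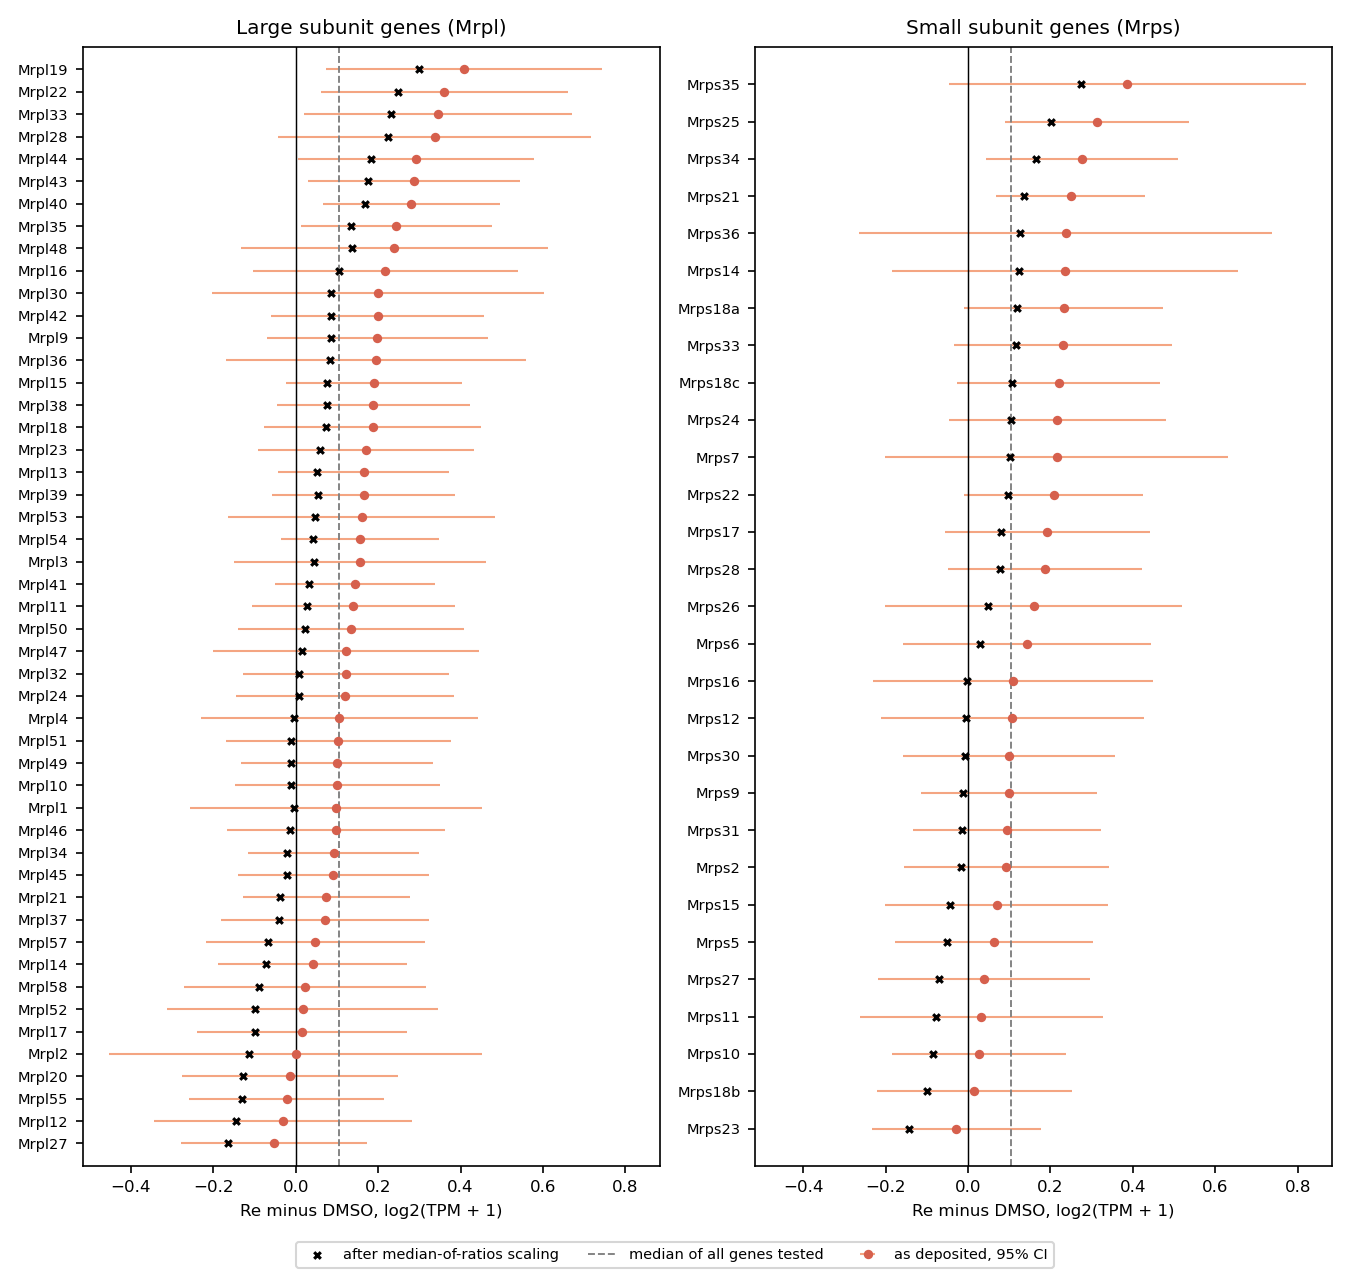
Red points show Re minus DMSO on the log2(TPM + 1) scale for each member with its 95% confidence interval from limma (3 libraries a group), crosses the same difference after median-of-ratios scaling, and the dashed line the median of all genes tested. Red points run from -0.05 (Mrpl27) to 0.41 (Mrpl19), and the crosses lie on both sides of 0.

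Grouping by structure rather than by name changed little. With Mrps18a and Mrps30 counted as large and Mrps36 left out, the Re medians were 0.14 (51 large) and 0.15 (26 small). The 29 large subunit proteins with a bacterial homologue and the 20 found only in mitochondria had medians of 0.14 and 0.14, and in the small subunit the 16 with a homologue had 0.13 and the 10 without 0.18. The 36 members with NRF1, ETS or YY1 letters had a median of 0.16, and the 33 without them, where the window was known, 0.12. After scaling these medians were 0.05 and 0.01. With GBC, 1 library a group, the order was the other way, at 0.12 with the letters and 0.16 without them. After median-of-ratios scaling the GBC medians were -0.25 and -0.19. The part of the letters in either difference was not tested.

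None of the other genes of mitochondrial translation passed the limma test either, and their counts are set beside the 77.5% of all genes that were higher and the median of 0.11 over all genes. All 5 mitoribosomal proteins with other names were higher, with a median of 0.18, and 0.06 after median-of-ratios scaling. Dap3 (mS29, a GTP-binding protein also known in cell death) was at 44.1 ± 6.37 TPM in DMSO and 44.9 ± 3.78 in Re, and Ptcd3 (mS39, at the mRNA entry) at 34.0 ± 3.46 and 35.8 ± 2.34 (SD, n = 3). Chchd1 (mS37) was at 78.3 ± 7.18 and 88.6 ± 2.51 TPM, and Aurkaip1 (mS38) at 62.7 ± 4.999 and 70.9 ± 3.58 TPM. Gadd45gip1 (mL64) was at 14.3 ± 3.5 and 17.5 ± 0.443 TPM. All 12 translation factors were higher (median 0.18, and 0.07 after median-of-ratios scaling), as were 19 of 23 genes for ribosome assembly and rRNA modification (median 0.11), 14 of 17 mitochondrial aminoacyl-tRNA synthetases (0.14) and 7 of 8 tested genes of mitochondrial transcription and RNA stability (0.23). After that scaling the medians of the latter 3 lists were 0.01, 0.03 and 0.12. Tfam, which packages mitochondrial DNA and starts its transcription, had the smallest p of the last list. It stood at 26.9, 22.8 and 23.6 TPM in DMSO and at 27.6, 38.9 and 36.8 TPM in Re (difference 0.47, limma adjusted p = 0.687). Mrm1, an rRNA methyltransferase, stood at 4.11, 3.56 and 3.61 TPM in DMSO and at 4.66, 9.42 and 10.5 TPM in Re (difference 0.89, limma adjusted p = 0.687), with the first Re library near DMSO.

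Lars2, the mitochondrial leucyl-tRNA synthetase, stood apart within its group. It was at 54.99, 3780 and 2037 TPM in the DMSO libraries and at 73.3, 29.7 and 52.8 TPM in Re, so the first DMSO library lay among the Re libraries. The rRNA that the members bind also varied within groups. The small subunit rRNA mt-Rnr1 was at 21658, 40910 and 37763 TPM in DMSO and at 16289, 17246 and 33000 TPM in Re, while the large subunit rRNA mt-Rnr2 was at 66157, 61272 and 64276 TPM in DMSO and at 67239, 71292 and 75112 TPM in Re. Lars2 and mt-Rnr1 were both high in the second and the third DMSO library, and the part of either in the members' values was not tested.

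The members' difference with Re was like that of other large housekeeping sets. The median over the 84 cytosolic ribosomal protein genes tested, the proteins of the cytosolic ribosome, was 0.15 with 82 higher, and over 79 nuclear oxidative phosphorylation genes tested, which encode the respiratory chain subunits that join those made by the mitochondrial ribosome, 0.15 with 77 higher. After median-of-ratios scaling both were 0.04, against 0.03 for all members. Of 10 tested nuclear regulators of mitochondrial genes, which include GABP subunits, 6 were higher (median 0.02), against 77.5% of all genes. After median-of-ratios scaling 2 of these regulators were higher, with a median of -0.09.

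For GBC there is 1 library a group, so no test was made. Of the 78 members 60 (76.9%) were higher in the GBC library, 40 of 49 large and 20 of 29 small subunit genes, against 88.8% of the 10989 genes at a mean of 1 TPM or more. The median difference was 0.17 for the large and 0.13 for the small subunit, against 0.32 for all genes, which the median-of-ratios scaling brings to 0.00. Members summed to 1724 TPM without and 1901 TPM with GBC, which was 0.427% and 0.396% of the listed TPM. The sign depended on the scaling. After median-of-ratios scaling 14 of 78 were higher, with medians of -0.19 and -0.23, and with both libraries set to an equal sum 27 were higher, with medians of -0.07 and -0.10.

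At a mean of 5 TPM or more, 1 of 76 members differed by at least 1 on the log2(TPM + 1) scale, against 330 of 6639 genes that were higher by this much (4.97%) and 16 that were lower (0.241%). This was Mrpl50 (mL50), which measured 3.73 TPM without and 9.36 TPM with GBC (1.13 on the log2 scale), and its partner Zfp189 on the other strand differed by 0.33. Under the 3 scalings Mrpl50 fell short of the limit, at 0.80 (median of ratios), 0.92 (equal sums) and 0.98 (mitochondrially encoded genes left out). Mrps18a was just under the limit, at 16.2 and 33.4 TPM, and just over it with pseudocounts of 0.1 (1.03) and 0.5 (1.02). The next large subunit genes were Mrpl53 (mL53) at 13.4 and 23.4 TPM, Mrpl12 at 6.08 and 10.2 TPM and Mrpl15 (uL15m) at 15.9 and 24.5 TPM. The next small subunit genes were Mrps10 at 6.22 and 10.1 TPM, Mrps34 at 7.01 and 10.6 TPM and Mrps18b at 31.1 and 43.5 TPM. Mrps18b starts 45 bases from Ppp1r10, a regulator of protein phosphatase, which differed by 1.28. Mrpl12 and Mrps10 were also among the genes furthest below the other table in the pair's DMSO library.

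Lower in GBC were Mrpl14 (uL14m, at the subunit interface) at 36.4 and 28.1 TPM, Mrpl34 (bL34m) at 17.5 and 14.8 TPM, Mrpl54 (mL54) at 42.2 and 38.3 TPM and Mrpl11 (uL11m, at the base of the stalk) at 27.7 and 26.4 TPM. In the small subunit Mrps23 (mS23) was at 33.9 and 27.1 TPM, Mrps24 (uS3m, at the mRNA entry) at 31.0 and 25.6 TPM, Mrps26 (mS26) at 19.9 and 17.1 TPM and Mrps12 at 8.46 and 7.59 TPM. The differences of the 78 members ran from -0.36 (Mrpl14) to 1.13 (Mrpl50), each between 1 library and another. Within the stalk Mrpl10 (uL10m) was at 21.1 and 26.6 TPM, so Mrpl10 and Mrpl12 were higher and Mrpl11 was not.

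A pair of measured properties went along with the members' GBC values. Across all genes the difference was larger for longer genes (rho of 0.337 with exon length over 10982 genes). Members had a median exon length of 2394 bases, against 4257 bases for all genes tested with Re. Among the members rho was 0.216, and the part of length in their difference was not tested. Across members the difference was larger for those at a lower DMSO level (rho of -0.396, n = 78), a relation in which the same DMSO library enters both measures. These are across genes of 2 libraries, so they describe those libraries.

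**Figure D5:**
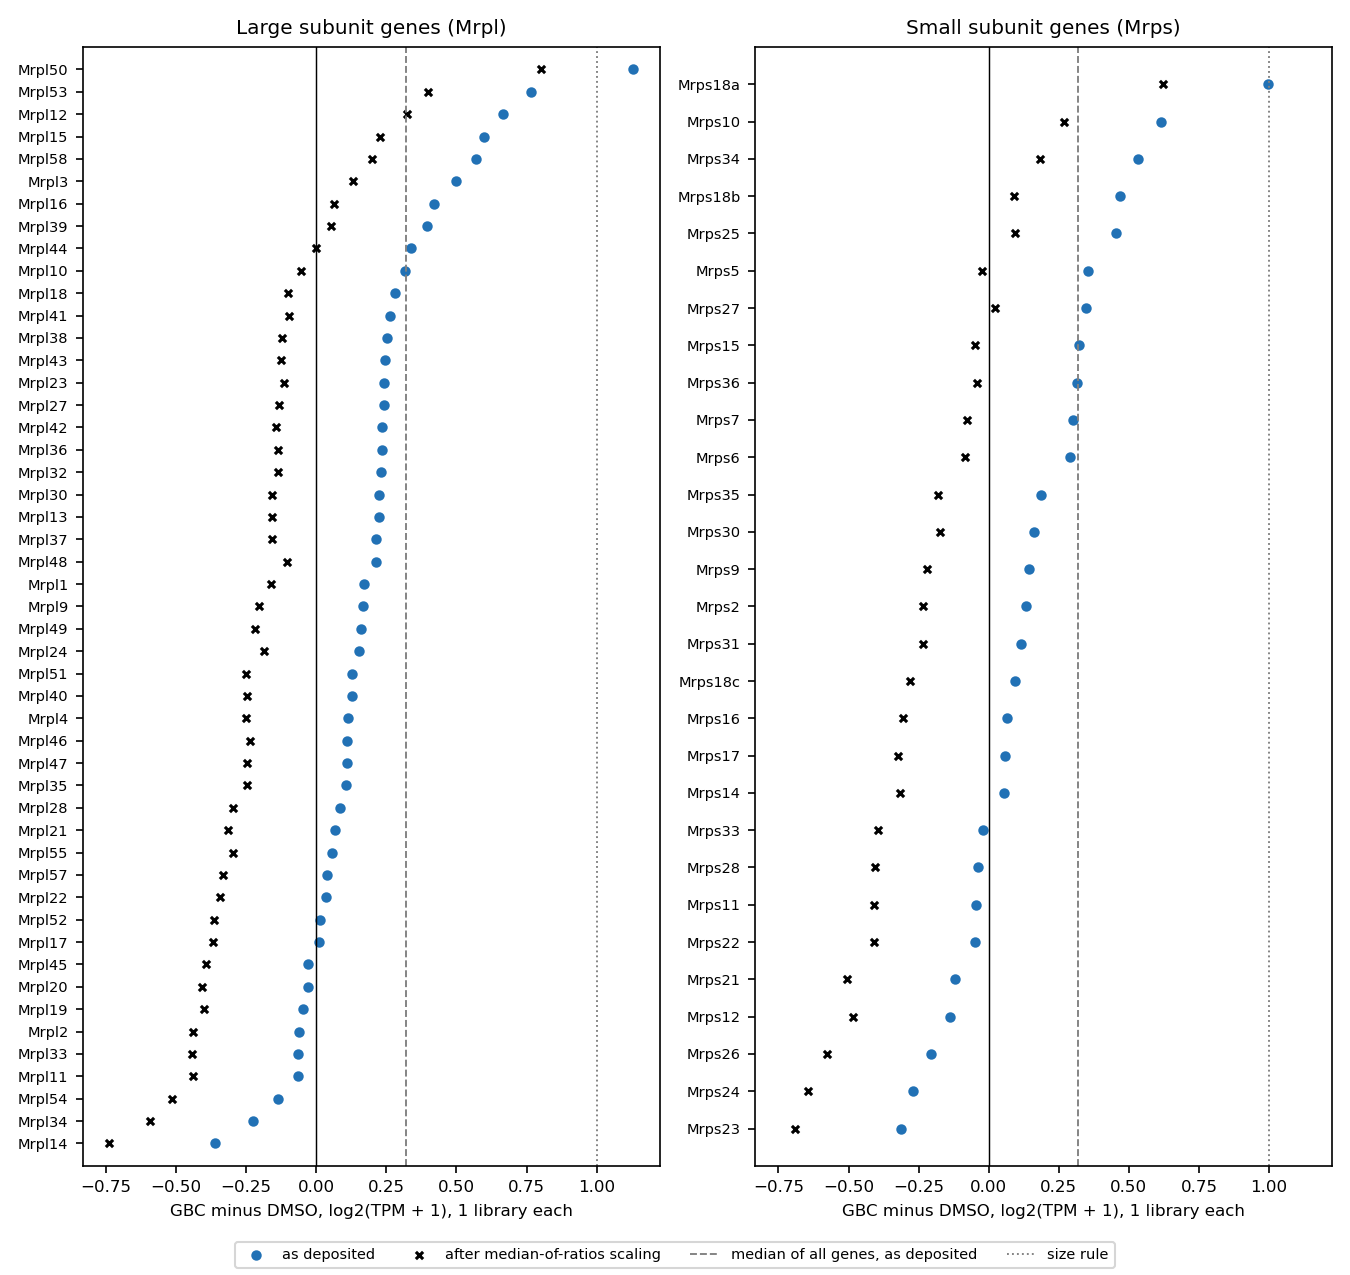
Blue points show GBC minus DMSO on the log2(TPM + 1) scale for each member (1 library each, no error), crosses the same after median-of-ratios scaling, the dashed line the median of all genes as deposited (0.32) and the dotted line the difference of 1 used to call a gene. Mrpl50 is the only blue point beyond the dotted line, and most blue points lie below the dashed line.

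Genes around the mitochondrial ribosome differed in size with GBC. The rRNAs were at 6188 and 10952 TPM (mt-Rnr1) and at 48168 and 58828 TPM (mt-Rnr2) in DMSO and GBC. The transcripts of the 13 mitochondrially encoded proteins, which this ribosome makes, had a median difference of 1.30 between 1 library and another. Of them 9 were higher by the size limit, against 330 of 6639 genes at a mean of 5 TPM or more (4.97%). Below the limit were mt-Nd1 (0.85), mt-Nd3 (0.35) and mt-Co1 (0.23), and mt-Co3 was lower (-0.79). With Re 7 of the same 13 were higher, with a median of 0.06, and -0.06 after median-of-ratios scaling. Some of them varied widely between libraries of 1 group. In the Re table mt-Nd2 stood at 461, 467 and 482 TPM in DMSO and at 309, 420 and 634 TPM in Re. There mt-Co3 stood at 20.2, 15.2 and 509 TPM in DMSO. The spread within the groups of the pair is unknown. In the pair, of the other mitoribosomal proteins, Dap3 was at 24.2 and 28.3 TPM, Ptcd3 at 34.3 and 41.2 TPM and Gadd45gip1 at 8.49 and 10.1 TPM. Chchd1, at 42.1 and 42.0 TPM, and Aurkaip1, at 20.1 and 20.5 TPM, differed by less than 0.1 on the log2(TPM + 1) scale. Translation factors had a median of 0.29, led by the elongation factor Tufm at 11 and 18.2 TPM, and the assembly genes a median of 0.15. After median-of-ratios scaling both turned negative, at -0.029 and -0.18. The median over cytosolic ribosomal protein genes was 0.04 and over nuclear oxidative phosphorylation genes 0.07, beside 0.16 for the members. After median-of-ratios scaling these were -0.35, -0.31 and -0.21, and the mitochondrially encoded proteins were at 0.91.

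The 2 comparisons have no library in common, and their differences over the 78 members had a rho of 0.058. Of the members 57 were higher in both and 2 lower in both. Taken singly, 73 of 78 were higher with Re and 60 with GBC, as were 77.5% and 88.8% of all genes. The share of all genes higher in both was not counted, so the 57 is not read as agreement. After median-of-ratios scaling 45 members were higher with Re and 14 with GBC.

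Pseudogenes of members, taken by symbol, were low beside their genes except for Mrpl48-ps. In the Re table the highest values were 8.25 TPM for Mrpl48-ps, 6.32 TPM for Mrpl23-ps1, 4 TPM for Mrpl27-ps and 3.37 TPM for Mrps36-ps1, and Mrpl48-ps thus approached the level of Mrpl48 itself. Whether the authors' estimation split reads between a gene and its copy was not tested, so the values of Mrpl48 in particular are uncertain.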

How the data were processed

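Both deposited tables hold log2(TPM + 1) per Ensembl gene; per the submitters' processing notes STAR and RSEM were used, and the builds GRCh38 and GRCm39 are named, while settings and versions are not given there. Since TPM carries no read depth, depth is unknown here and neither count models nor counting intervals apply. Values were transformed back to TPM and rounded to 0.01. Columns were matched to samples by their description, with 0 columns left over, and the tables were analysed separately.

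The Re comparison used limma 3.58.1 and R 4.3.3 (lmFit, eBayes with trend, two-sided) on log2(TPM + 1), pseudocount 1, over genes whose mean reached 1 TPM, with Benjamini-Hochberg adjustment and a threshold of 0.05; differences on this scale understate the change of low genes. The step was tested on simulated data. For GBC, counts were made of members whose mean reached 5 TPM and whose difference reached 1. Alternatives were pseudocounts of 0.1 and 0.5, other filters, 3 scalings, limma without trend or robust, leaving out single libraries, and a replicate block. Motif and neighbour searches used Python 3.11.15, pandas 2.3.3, RefSeq promoters and GENCODE M21.

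Members and lists were chosen with earlier results of these data known. Named were, per subunit, the 4 smallest p for Re, the 4 highest and 4 lowest GBC differences, the 3 highest and 3 lowest levels in each table, the 3 widest gaps between tables either way, a few genes by name, and genes from each list described. Mrpl20 and the other members lower with Re, Mrps22, Mrpl49, Mrpl10 and the divergent partners were chosen after their values were seen.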

Additional observations from a re-analysis of the deposited data

How the results depend on the processing

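No member reached an adjusted p below 0.355 by limma in any setting, and 0 members passed. With the replicate block, 0 genes passed, 810 genes had an unadjusted p under 0.05 against 745 without it, and 10 members did in both. The numbers were not used as pairs: same-numbered libraries deviated together with r of 0.163, 0.077 and 0.017, and 1 of the 3 DMSO libraries correlated best with its own number. Leaving out 1 library gave 0 to 7 genes past the threshold, Re medians of 0.09 to 0.19 (large) and 0.09 to 0.25 (small), 57 to 73 members higher, and differences of -0.037 to 0.42 for Mrps36, -0.052 to 0.15 for Mrpl58 and -0.17 to 0.10 for Mrpl12. Without the first DMSO library 23 members and 1657 genes had an unadjusted p under 0.05. Median-of-ratios scaling gave Re medians of 0.027 and 0.048, 45 members higher and 6 separated upward, and 3 members and 565 genes with an unadjusted p under 0.05; Mrps30 became -0.0068 and Mrpl58 -0.089. Equal sums, and leaving out mitochondrially encoded genes, gave 10 separated members each and -0.042 and -0.067 for Mrpl58, and the latter a large subunit median of 0.050. For GBC, pseudocounts of 0.1 and 0.5 gave 2 and 2 members past the size limit, and each scaling 0, 0 and 0. GBC medians (large, small) and members higher were -0.19, -0.23 and 14 under median-of-ratios scaling, -0.066, -0.10 and 27 under equal sums, and -0.030, -0.064 and 34 without mitochondrially encoded genes. The separation counts and counts of members higher were added after seeing the data. The cause of these shifts was not tested, and depth is unknown.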
